A study of Mus musculus with 8 samples.

Results

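Haematopoietic cytokine receptors are the surface proteins through which blood progenitors read growth factors. The set described here holds 9 genes, taken by symbol from the 53700 genes of the count table: Kit, Flt3, Csf1r, Csf2ra, Csf2rb, Csf3r, Il7r, Epor and Tek. All 9 passed the filter on low counts that left 12132 genes for testing, and members at 0 in some libraries passed through the libraries in which they were present. Polyadenylated RNA was measured in 8 libraries of sorted mouse bone marrow cells, 1 for each cell type and genotype of the donor. The haematopoietic stem cells (HSC) were CD48- CD150+ and multipotent progenitors (MPP) CD48+ CD150-, both within the LSK gate of lineage-negative cells that carry Sca-1 and Kit protein. Each library pooled equal numbers of cells from 5 mice.

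All donor marrow was CD45.2 and had been transplanted into irradiated wild-type CD45.1 recipients, and the CD45.2+ cells were sorted 13 weeks later. The donor labelled DKO lacked both NFAT5 (Nfat5 fl/fl Vav-Cre) and IFNAR1. The donor labelled IFNAR lacked IFNAR1, the donor labelled N5 was Nfat5 fl/fl Vav-Cre, and the donor labelled WT was Nfat5 +/+ Vav-Cre. Vav-Cre acts in blood-forming cells, and whether the IFNAR marrow carried it is not given in the labels. NFAT5 switches on genes when cells face hypertonic stress, and IFNAR1 is needed for cells to sense type I interferons. No genotype was replicated within a cell type, so p-values measure only the spread between these libraries.

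Kit, Flt3, Csf1r and Tek are receptor tyrosine kinases, which pair on binding their ligand and phosphorylate each other. Csf2ra, Csf2rb, Csf3r, Il7r and Epor are class I cytokine receptors, which have no kinase of their own and signal through bound JAK kinases to STAT proteins. In marrow, KIT and TEK (TIE2) are known as receptors of stem cells, FLT3 and IL7R as receptors of lymphoid-primed progenitors, the CSF receptors as receptors of granulocyte and macrophage precursors, and EPOR as the erythropoietin receptor of red cell precursors.

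Total counts per library ran from 28871693 to 47205950. Levels are given in CPM, counts scaled to a common library size with TMM factors, and 10 CPM stood for at least 284.8 counts in each library. Stem cell markers such as Slamf1 and Procr followed the cell type labels, with 11 of 11 higher in HSC and 9 not overlapping MPP. All 9 measured progenitor markers were lower in HSC without overlap. Of all genes tested, 44.2% were higher in HSC, 4.73% lay above MPP without overlap and 5.65% below. Slamf1 encodes CD150 and Cd48 is in the progenitor list, so each list holds a gene of a protein used for sorting. Transcripts of the 2 targeted genes did not track the labels. Nfat5 had 35.5, 3.12, 22.7 and 33.2 CPM in HSC (labels DKO, IFNAR, N5 and WT), and 11.5, 0.193, 7.69 and 5.59 CPM in MPP by the same labels. Ifnar1 was at 35.1, 113, 126 and 122 CPM in HSC, and at 125, 43.8, 87.9 and 37.2 CPM in MPP. Counts over a whole gene cannot separate deleted exons from those that remain, so libraries are named by their labels and directions by genotype rest on those labels. In bulk RNA, fewer cells with a transcript and less transcript per cell cannot be told apart.

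**Figure D1:**
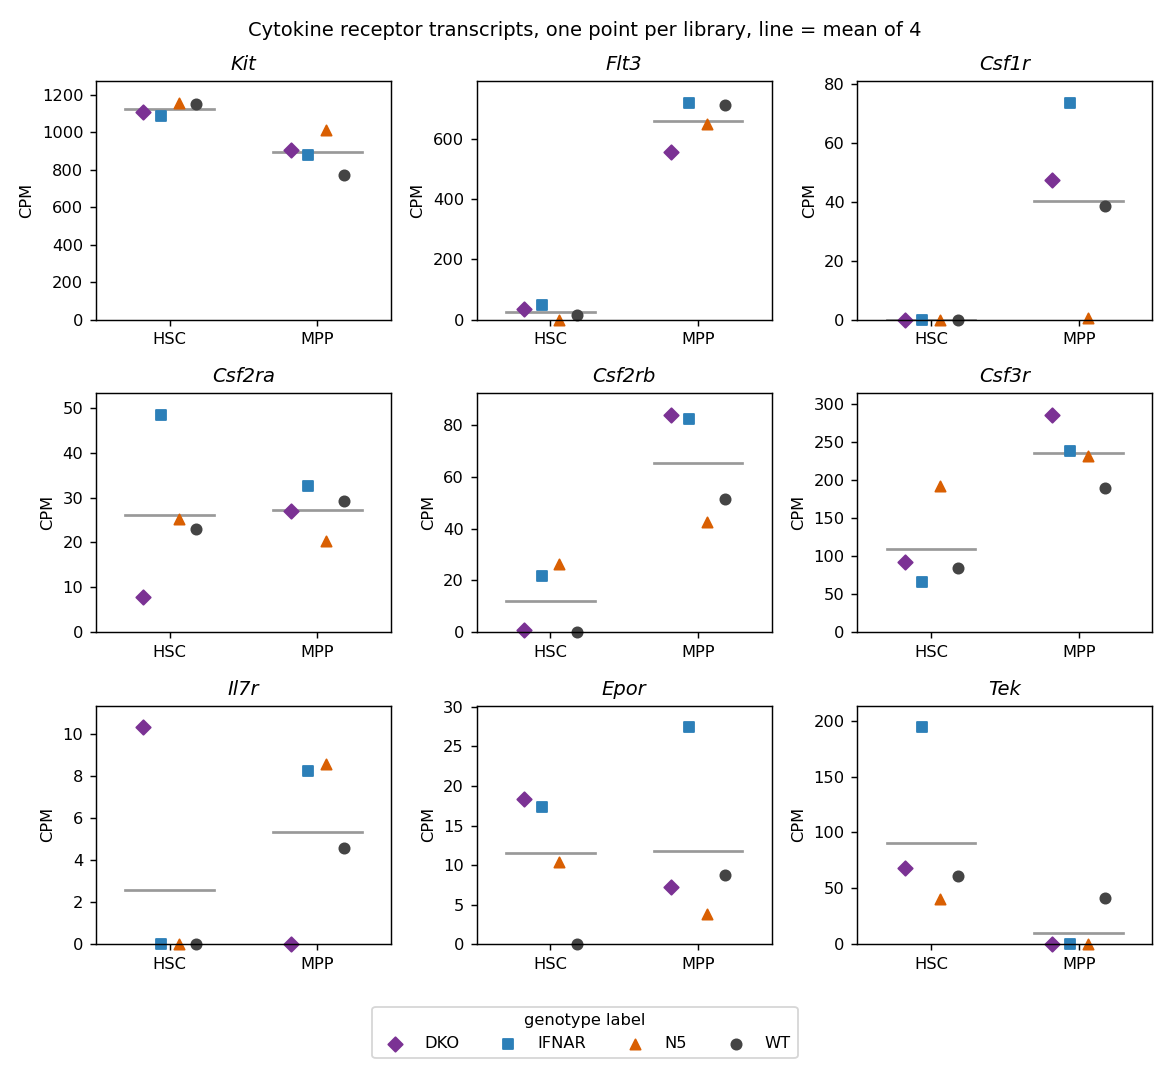
Level of each receptor transcript in CPM on a linear axis from 0, with 1 point per library, HSC on the left and MPP on the right of each panel, marker shape and colour for the genotype label and a line at the mean of 4 libraries. Kit is high in every library, Flt3 lies between 557 and 719.6 CPM in MPP and at or under 49.2 CPM in HSC, and Tek is at 0 in 3 MPP libraries while Il7r is at 0 in 3 HSC libraries.

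The comparison of HSC with MPP asked how the receptor repertoire differs between the stem cell gate and the progenitor gate. Flt3, Csf1r and Csf2rb were lower in all 4 HSC libraries than in any MPP library, and Kit was higher in all 4. Tek averaged higher in HSC and Csf3r lower, in 4 of 4 pairs of libraries with the same genotype label, with an overlap of libraries in each case. Il7r, Csf2ra and Epor overlapped widely. Of the 9 members, 4 did not overlap between the cell types, where 10.4% of all genes tested did not (4.73% with HSC above and 5.65% with HSC below). The median HSC minus MPP difference of the members was -1.29 in mean log2 CPM, against -0.12 over all genes tested. That median is the value of Epor, whose means were 11.5 CPM in HSC and 11.8 CPM in MPP. With 1 HSC library at 0, it depends on the prior count. The members were chosen with earlier results of these data known.

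No member passed edgeR's quasi-likelihood test with genotype as a block (smallest adjusted p = 0.149, for Csf1r), where 0.0165% of all genes tested passed. An unadjusted p under 0.05 was reached by 5 members and by 10.1% of all genes. Fitted fold changes of members with libraries at 0 depend on the prior count. Other tools called more. DESeq2 called 7 of 9 members, all but Csf2ra and Epor, against 15.5% of all genes. Kit and Tek were its 2 higher calls in HSC (6.89% of genes) and the other 5 were lower (8.61%). Limma-voom called 1, Csf1r, against 1.29%. The bias-adjusted edgeR method called 1, Flt3, against 0.882%, and edgeR without the genotype block called 1, Csf1r, against 1.71%. With a filter of 10 CPM in 4 libraries edgeR called 0 members and 0.251% of genes.

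**Figure D2:**
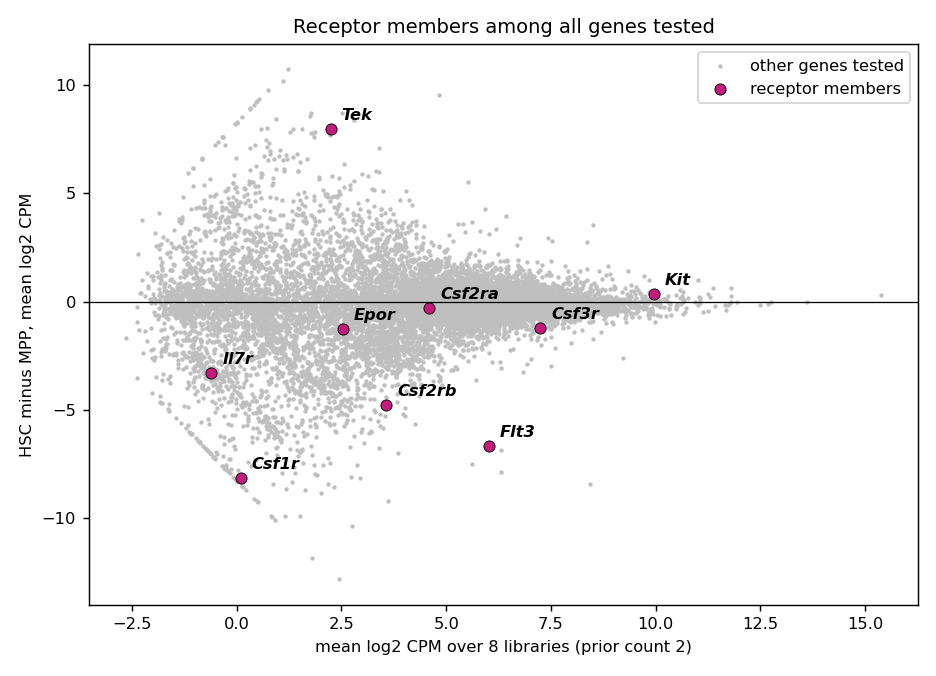
Mean log2 CPM over the 8 libraries (horizontal) against the HSC minus MPP difference in mean log2 CPM (vertical, prior count of 2), with grey points for the other genes tested and labelled points for the 9 members. Flt3 at -6.68 and Csf1r at -8.17 lie low, Tek at 8.00 lies high, and Kit at 0.34 has the highest mean level of the members.

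Kit, the receptor of stem cell factor, had the highest HSC level of the members per kilobase. Its level was 1106, 1087, 1157 and 1148 CPM in HSC (labels DKO, IFNAR, N5 and WT), and 907, 879.8, 1009.9 and 773 CPM in MPP by the same labels. Every HSC library lay above every MPP library, and the 4 HSC libraries lay within 1.06-fold of each other. The mean was 1125 ± 33.3 CPM in HSC against 893 ± 97.3 CPM in MPP (SD, n = 4 each, as for all means by cell type), a log2 fold change of 0.34 (SE 0.10, edgeR adjusted p = 0.390, DESeq2 adjusted p = 0.00122). KIT protein on the surface was part of the gate for both cell types. Its log2 range over the HSC libraries was 0.09, where genes of 500 to 2000 CPM had a median of 0.41.

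Flt3, the receptor of FLT3 ligand and the surface marker that separates lymphoid-primed progenitors from stem cells, showed a 25.7-fold lower mean in HSC. It had 37.0, 49.2, 0 and 16.2 CPM in HSC (labels DKO, IFNAR, N5 and WT), and 557, 719.6, 649 and 712 CPM in MPP by the same labels. The N5 library of HSC held no count, which allows up to 0.0979 CPM (3 counts, a limit for counting error only). The lowest MPP library was still above the highest HSC library. The fitted log2 fold change was -5.42 (SE 1.63), with adjusted p = 0.380 in edgeR, 0.00767 in edgeR's bias-adjusted method and 0.0155 in DESeq2.

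Csf1r, the receptor of macrophage colony-stimulating factor, was near 0 in HSC. Its HSC libraries held 0, 0, 0 and 1 counts (DKO, IFNAR, N5 and WT), and its MPP libraries 1676, 2673, 21 and 1168 counts, or 47.5, 73.5, 0.737 and 38.6 CPM. The groups did not overlap, yet the MPP library labelled N5 lay 99.7-fold under the highest MPP library. Over the summed counts, MPP exceeded HSC 6444-fold with an exact 95% interval of 1156 to 254551 that covers counting error only (edgeR adjusted p = 0.149, limma-voom adjusted p = 0.0450). Monocyte and macrophage markers were also lower in HSC. All 5 of the 9 listed markers that were measured were lower in HSC, the list summed to between 8.32 and 70.8 CPM in HSC libraries and between 195 and 546 CPM in MPP libraries, and Adgre1, C1qa, Ccr2 and F13a1 were at 0 in every HSC library. Fcgr1 was at 0 in all 8 libraries, and Adgre1 was also at 0 in the MPP libraries labelled DKO and IFNAR. Among MPP libraries, the one labelled N5 also had the lowest marker sum, 195 CPM, with 2 of 9 markers at 0. The one labelled IFNAR, highest for Csf1r, had the highest sum, 546 CPM, yet 4 of 9 markers at 0. The part of such cells in the Csf1r difference was not tested.

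Csf1r shares 873 exonic bases with Hmgxb3 on the opposite strand in a GRCm38 annotation, and with unstranded libraries the reads of these bases cannot be told apart. Its other neighbour is Pdgfrb, a receptor kinase gene on the same strand. Pdgfrb showed the same split more evenly, with 0 counts in all 4 HSC libraries and 71.2, 58.7, 66.1 and 55.7 CPM in the MPP libraries labelled DKO, IFNAR, N5 and WT. It was at least 775-fold lower in HSC against a mean floor of 0.0812 CPM, a limit for counting error only (edgeR adjusted p = 0.278). The library labelled N5, low for Csf1r, was among the higher ones for Pdgfrb.

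Tek encodes TIE2, the angiopoietin receptor of endothelium and stem cells. It had 68.6, 194, 40.3 and 61.0 CPM in HSC (labels DKO, IFNAR, N5 and WT), against 0, 0, 0 and 41.5 CPM in MPP by the same labels. A single MPP library, labelled WT, carried all its MPP counts and reached just past the lowest HSC library, 41.5 against 40.3 CPM. The mean was 8.76-fold higher in HSC at 91.0 ± 69.7 CPM, against 10.4 ± 20.8 CPM in MPP. The fitted log2 fold change, with MPP libraries at 0, was 10.8 in edgeR (SE 3.60, adjusted p = 0.408) and 14.7 in DESeq2 (adjusted p = 1.69e-06). Leaving out the HSC library labelled N5 or the MPP library labelled WT removed the overlap. Of 10 endothelial and stromal markers, 4 were measured, and 1 of these was higher and 3 lower in HSC. Vwf, also a marker of megakaryocytes and of some stem cells, had 153.7 ± 97.1 CPM in HSC against 1.25 ± 1.45 CPM in MPP without overlap, in the direction of Tek (edgeR adjusted p = 0.320). Pecam1 had 56.9 ± 34.7 CPM in HSC against 147 ± 34.8 CPM in MPP, so that it and Pdgfrb lay the other way without overlap, while Emcn overlapped. Cdh5, Col1a1, Lepr and Plvap were at 0 in all 8 libraries, and the list summed to between 177 and 344 CPM in HSC libraries and between 193 and 286 CPM in MPP libraries. The part of such cells in the Tek difference was not tested. Angpt1, which encodes the activating ligand of TIE2, had 656 ± 80.1 CPM in HSC against 427 ± 75.6 CPM in MPP with no overlap (log2 fold change 0.63, SE 0.18, edgeR adjusted p = 0.365). Tie1, the related receptor of the same family, had 304 ± 42.1 CPM in HSC against 44.8 ± 26.9 CPM in MPP, also without overlap (log2 fold change 2.96, SE 0.45, edgeR adjusted p = 0.168).

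The promoters of Flt3 and Tek are shown because these genes lie on opposite sides of the comparison with high levels on one side. RefSeq promoters (GRCm38.p6, 250 bases before to 50 after the start) were found for 7 of the 9 members. Capitals mark matches, on either strand, to motifs of 4 factor families, and no matches overlap in the promoters shown. The motif of the GATA family was searched as AGATAA and occurs in 11.2% of 32851 promoters. The ETS motif AGGAAG occurs in 35.4% of them, the RUNX motif TGTGGT in 16.8% and the E-box CANCTG in 51.4%. Flt3 held an E-box match and Tek a match of the GATA family, with none of the other 3 motifs in either. Among the other members with a promoter, the GATA motif was found only for Epor, and the ETS motif for Kit, Csf2ra, Csf3r and Il7r. The E-box was also found for Csf2ra, Il7r and Epor, and the RUNX motif for Il7r and Epor. A match describes the letters and shows no binding.
Flt3, chr5:147400440-147400739, minus strand: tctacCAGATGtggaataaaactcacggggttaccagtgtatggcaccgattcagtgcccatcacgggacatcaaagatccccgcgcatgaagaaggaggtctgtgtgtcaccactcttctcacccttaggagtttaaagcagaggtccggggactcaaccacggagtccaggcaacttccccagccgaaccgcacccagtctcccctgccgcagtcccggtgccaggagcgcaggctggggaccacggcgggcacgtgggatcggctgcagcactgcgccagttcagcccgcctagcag
Tek, chr4:94739039-94739338, plus strand: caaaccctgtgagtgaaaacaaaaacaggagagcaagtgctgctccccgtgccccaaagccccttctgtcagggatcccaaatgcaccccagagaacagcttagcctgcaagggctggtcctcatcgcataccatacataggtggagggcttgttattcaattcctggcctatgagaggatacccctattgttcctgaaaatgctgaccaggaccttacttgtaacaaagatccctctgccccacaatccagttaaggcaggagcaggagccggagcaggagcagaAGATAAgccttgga

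Csf3r, the receptor of granulocyte colony-stimulating factor, had the highest level per kilobase of the class I members in both cell types. It had 92.0, 65.3, 192 and 84.2 CPM in HSC (labels DKO, IFNAR, N5 and WT), against 285, 237, 231 and 189 CPM in MPP by the same labels. Each HSC library lay under its MPP partner, and the overlap came from the HSC library labelled N5, whose 192 CPM just passed the 189 CPM of the MPP library labelled WT. The mean was 108 ± 57.0 CPM in HSC against 235 ± 39.5 CPM in MPP (log2 fold change -1.24, SE 0.30, edgeR adjusted p = 0.315, DESeq2 adjusted p = 0.000965). Of 9 neutrophil markers, all measured, 6 were higher and 3 lower in HSC. Of these, 1 lay below MPP without overlap, where 5.65% of all genes tested did. Cebpe was at 0 in every HSC library. The list sums overlapped, at 499 to 669 CPM in HSC libraries and 140 to 779 CPM in MPP libraries. The part of such cells in the Csf3r difference was not tested.

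Csf2ra encodes the ligand-specific chain of the GM-CSF receptor, and Csf2rb the common beta chain that also serves the receptors for interleukin 3 and interleukin 5. Csf2ra had 7.75, 48.4, 25.2 and 22.9 CPM in HSC (labels DKO, IFNAR, N5 and WT), and 26.9, 32.7, 20.4 and 29.3 CPM in MPP by the same labels. The HSC libraries covered the whole MPP range, at 26.1 ± 16.8 CPM in HSC against 27.3 ± 5.19 CPM in MPP (edgeR adjusted p = 0.961). Csf2rb had 0.760, 21.6, 26.3 and 0 CPM in HSC, against 84.0, 82.6, 42.6 and 51.6 CPM in MPP, by the same labels. These groups did not overlap, and the HSC mean was 12.2 ± 13.7 CPM against 65.2 ± 21.2 CPM in MPP (log2 fold change -4.58, SE 2.53, edgeR adjusted p = 0.660, DESeq2 adjusted p = 0.00746).

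Mice carry a close paralog of the common chain, Csf2rb2, whose product serves interleukin 3 alone, and reads of the pair can be split by the counting. The longest coding sequences of the pair in GENCODE M21 were identical at 95.2% of 2628 aligned bases, with an identical run of 242 bases, and shared 687 of 2639 50-base words of Csf2rb (26.03%). The 90-base stretch with the most differences, 16, is shown because the coding sequences differ most there. Both genes lie on chromosome 15, and capitals mark the bases that differ.
Csf2rb, coding bases 308 to 397: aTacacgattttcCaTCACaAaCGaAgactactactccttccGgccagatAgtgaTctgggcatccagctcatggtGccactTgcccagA
Csf2rb2, coding bases 311 to 400: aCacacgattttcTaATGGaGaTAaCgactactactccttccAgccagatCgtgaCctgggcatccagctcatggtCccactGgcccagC

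Csf2rb2 had 12.2, 16.8, 20.8 and 69.1 CPM in HSC (labels DKO, IFNAR, N5 and WT), against 9.68, 0, 19.2 and 7.18 CPM in MPP by the same labels. The HSC library with no Csf2rb count, labelled WT, was the highest for Csf2rb2, and the MPP library with no Csf2rb2 count, labelled IFNAR, was among the higher ones for Csf2rb. Summed over the pair, HSC had 41.9 ± 23.2 CPM, from 13.0 to 69.1, and MPP had 74.2 ± 16.7 CPM, from 58.8 to 93.6. The sums overlapped, with HSC lower in 3 of 4 pairs, and the log2 fold change was -0.99 (SE 0.61, edgeR adjusted p = 0.706). The separation seen for Csf2rb alone was thus not seen for the pair. Csf2rb made up 5.85%, 56.3%, 55.8% and 0% of the pair in HSC, and 89.7%, 100%, 69.0% and 87.8% in MPP.

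**Figure D3:**
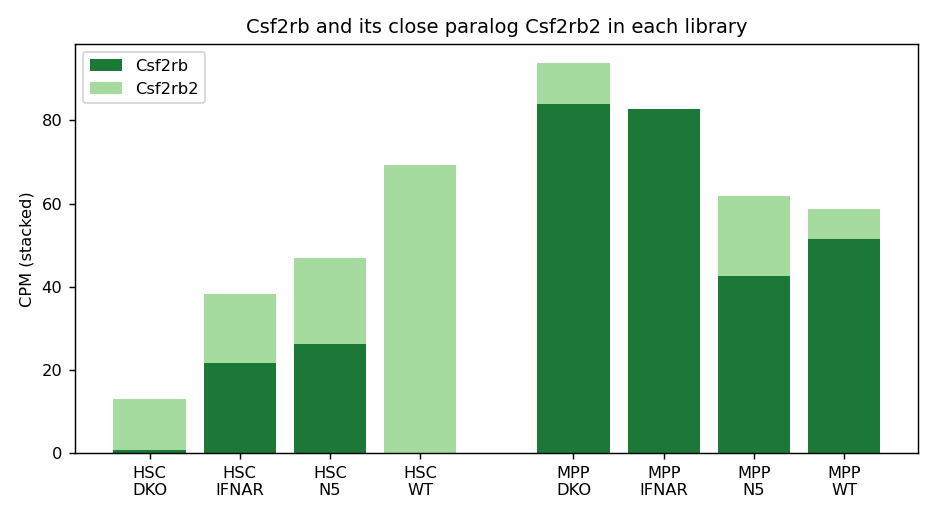
Stacked bars of Csf2rb (dark) and Csf2rb2 (light) in CPM for each library, HSC on the left and MPP on the right. The MPP bars are mostly Csf2rb, the HSC bar labelled WT is Csf2rb2 alone, and the pair sums of 13.0 to 69.1 CPM in HSC overlap those of 58.8 to 93.6 CPM in MPP.

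Epor, the receptor of erythropoietin, had 18.3, 17.4, 10.4 and 0 CPM in HSC (labels DKO, IFNAR, N5 and WT), and 7.22, 27.4, 3.79 and 8.703 CPM in MPP by the same labels. The means were 11.5 ± 8.45 CPM in HSC against 11.8 ± 10.6 CPM in MPP (log2 fold change -0.37, SE 2.35, edgeR adjusted p = 0.988), with libraries of both cell types interleaved and an error too large to call the levels alike. Erythroid markers were split among themselves, with 4 of 7 measured higher in HSC, and their list summed to between 1581 and 1742 CPM in HSC libraries and between 735 and 1108 CPM in MPP libraries. The MPP library labelled IFNAR was the highest MPP library for both Epor and this list. In HSC the order differed, since the library labelled DKO had the highest Epor level and the lowest list sum, 1581 CPM, and the library labelled WT had no Epor count and a list sum of 1722 CPM.

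Il7r, the interleukin 7 receptor chain of lymphoid progenitors, had the lowest MPP level of the members per kilobase and was at 0 in several libraries. It had 10.3, 0, 0 and 0 CPM in HSC (labels DKO, IFNAR, N5 and WT), against 0, 8.23, 8.57 and 4.57 CPM in MPP by the same labels. The DKO label was the exception on both sides, with the only HSC library that held Il7r and the only MPP library that did not. The means were 2.58 ± 5.15 CPM in HSC against 5.34 ± 3.99 CPM in MPP. The fitted log2 fold change was -8.94 in edgeR (SE 5.02, adjusted p = 0.665) and -11.4 in DESeq2 (adjusted p = 0.00169). Both fits lie far past the difference of the means, with libraries at 0 on both sides. The highest Il7r level of all 8 libraries was in HSC, in the library labelled DKO. Of 9 B cell markers, 4 were measured and 3 of these were lower in HSC without overlap, where 5.65% of all genes tested were. Pax5 and Igll1 were at 0 in all HSC libraries. Rag1 was at 0 in all 8 libraries. Their list summed to between 30.7 and 103 CPM in HSC libraries and between 67.6 and 91.6 CPM in MPP libraries, and its part in the Il7r levels was not tested. The other chain of this receptor, Il2rg, had 353 ± 63.9 CPM in HSC against 318 ± 17.1 CPM in MPP with overlap (edgeR adjusted p = 0.879). It was read from the receptor list and named after its values were seen.

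Members could be ranked by CPM per kilobase of annotated exon, from GENCODE M21 lengths matched by gene identifier. In HSC, Kit stood at 126 ± 3.74 CPM per kb, above every library of every other member. Csf3r at 30.04 ± 15.8, Tek at 19.3 ± 14.8, Csf2ra at 9.08 ± 5.85, Epor at 5.80 ± 4.25 and Flt3 at 4.15 ± 3.54 CPM per kb followed, each overlapping its neighbour in this order. In MPP, Flt3 led at 107 ± 12.2 CPM per kb and overlapped Kit at 100.2 ± 10.9, while Csf3r at 65.2 ± 10.9 lay under both. Csf2ra at 9.52 ± 1.81, Csf2rb at 8.96 ± 2.91, Csf1r at 6.94 ± 5.22 and Epor at 5.93 ± 5.34 CPM per kb formed an overlapping lower group. Flt3 thus ranked 6 of 9 in HSC and 1 of 9 in MPP.

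The rest of the pathway was read from lists of receptors, ligands, signal transducers, negative regulators and downstream genes. Of all genes tested, 44.2% were higher in HSC (median log2 fold change -0.10), the share to set beside the count for each list. HSC lay above MPP without overlap for 4.73% of all genes tested and below for 5.65%. Among other class I receptors, 15 of 26 were measured and 13 were higher in HSC (median log2 fold change 0.74), 3 of them without overlap. Il27ra averaged 179.7 ± 85.9 CPM in HSC against 38.8 ± 19.0 CPM in MPP, and Il11ra1 180.1 ± 38.4 CPM in HSC against 85.9 ± 42.4 CPM in MPP, both without overlap (edgeR adjusted p = 0.233 and 0.365). Of 15 other receptor tyrosine kinases, 8 were measured and 5 were higher in HSC (median 0.54). Beside Tie1 and Pdgfrb, Tyro3, a receptor of the TAM family, had 0 counts in every HSC library and 12.4 ± 3.36 CPM in MPP (edgeR adjusted p = 0.407). Against the floor of 3 counts it was at least 153-fold lower in HSC, a limit for counting error only.

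Ligand genes were mostly unmeasured, with 3 of 14 passing the filter, all higher on average in HSC (median 1.07). Besides Angpt1, Flt3l averaged 12.2 ± 6.58 CPM in HSC against 6.75 ± 5.27 CPM in MPP with overlap (edgeR adjusted p = 0.870). All 22 signal transducers were measured, and 13 were higher in HSC (median 0.07). Pik3cd, a catalytic subunit of PI3 kinase, had 296 ± 48.3 CPM in HSC against 170.2 ± 33.1 CPM in MPP (edgeR adjusted p = 0.169). Stat5a, a transcription factor activated by many of these receptors, had 238 ± 91.7 CPM in HSC against 146 ± 41.6 CPM in MPP with overlap (edgeR adjusted p = 0.409).

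Of 21 negative regulators, 20 were measured and 11 were higher in HSC (median 0.06). The 3 that did not overlap, all with HSC above (4.73% of all genes tested), were Cish, Socs2 and Socs1, feedback inhibitors induced by STAT signalling. Cish averaged 65.04 ± 38.002 CPM in HSC against 8.18 ± 7.67 CPM in MPP (log2 fold change 3.48, SE 0.95, edgeR adjusted p = 0.340). Socs2 averaged 139 ± 73.6 CPM in HSC against 7.98 ± 11.1 CPM in MPP (edgeR adjusted p = 0.488), while Socs5 overlapped at 80.96 ± 21.03 CPM in HSC against 60.3 ± 26.2 CPM in MPP (edgeR adjusted p = 0.686). Among 13 downstream genes, all measured, 9 were higher in HSC (median 0.53). The cell cycle gene Ccnd2 averaged 696 ± 98.8 CPM in HSC against 303 ± 90.4 CPM in MPP, and the immediate early gene Egr1 70.8 ± 55.3 CPM in HSC against 4.10 ± 5.81 CPM in MPP, both without overlap (edgeR adjusted p = 0.144 and 0.245). The kinase gene Pim2 averaged 123 ± 36.9 CPM in HSC against 61.5 ± 17.9 CPM in MPP with overlap (edgeR adjusted p = 0.324). No gene of these lists passed edgeR, where 0.0165% of all genes tested did. DESeq2 called 3 other class I receptors higher in HSC, 1 other receptor tyrosine kinase higher and 2 lower, and 1 ligand higher. It also called 2 signal transducers and 2 negative regulators higher, and 6 downstream genes higher and 1 lower. Of all genes tested, DESeq2 called 6.89% higher and 8.61% lower.

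**Figure D4:**
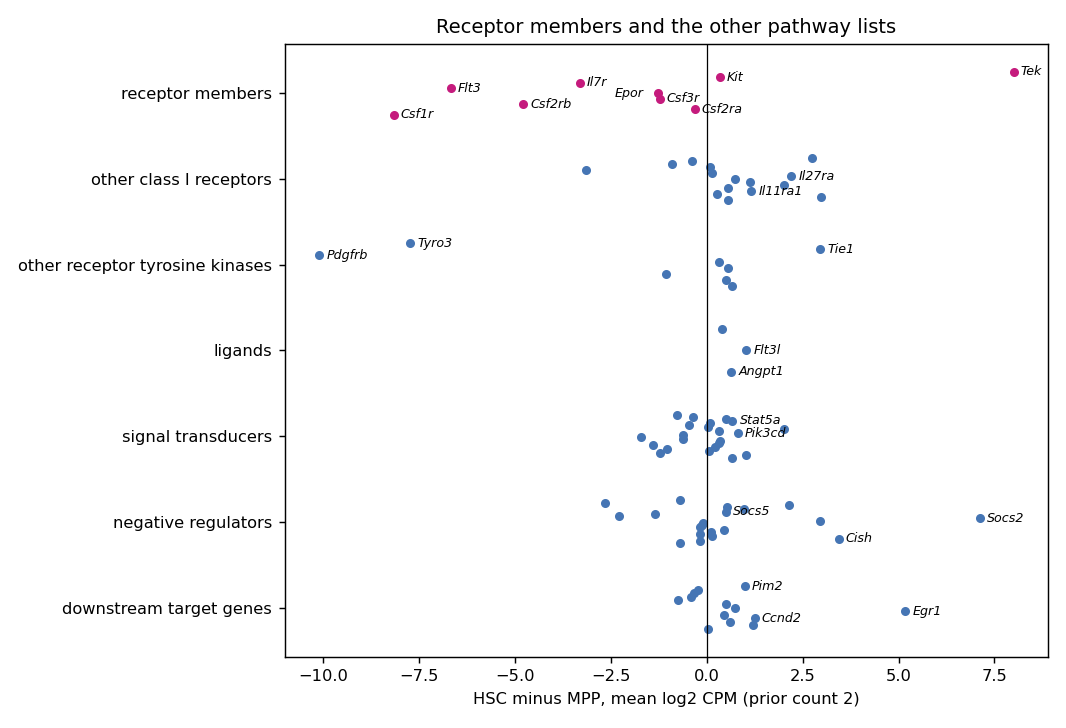
HSC minus MPP difference in mean log2 CPM (prior count of 2) for each measured gene, with 1 row per list and labels for the named genes. The receptor members spread from -8.17 for Csf1r to 8.00 for Tek, and Kit lies at 0.34.

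For each member, genes with a similar profile were sought, as the smallest root mean square difference in log2 CPM over the 8 libraries after centring each gene, among 8901 genes. Flt3 was closest to Ighm (0.92) and Ctsg (0.93), against a deviation of 4.37 of Flt3 from its own mean. Csf1r was closest to F13a1 (1.32) and Nlrp1a (1.39), and Tek to Sox18 (1.02) and Rab27b (1.297). Csf2rb was closest to Pag1 (0.67) and Hp (0.78), Epor to Selenoo (0.36) and Pex10 (0.59), and Il7r to Slc29a2 (1.14) and Trim23 (2.18). Csf3r was closest to Slc25a51 (0.22) and Ncaph (0.24). Csf2ra was near Mre11a (0.22), and Kit near Atp5g2 (0.10). For Kit, Csf2ra and Csf3r the members' own deviations were 0.20, 0.71 and 0.75. Those of Csf1r, Csf2rb, Il7r, Epor and Tek were 4.49, 3.54, 3.55, 2.66 and 4.985. These members and Flt3 had libraries at 0, so their distances depend on the prior count and on which libraries are at 0.

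The genotype labels addressed whether loss of NFAT5 or of IFNAR1 alters these receptors. For the Nfat5 label (DKO and N5 against IFNAR and WT) no member passed edgeR (all adjusted p = 1), nor did any gene tested (0%), while an unadjusted p under 0.05 was reached by 0 members and by 2.79% of genes. DESeq2 called 0 members and 1.37% of genes (0.684% higher and 0.684% lower), and limma-voom 0 members and 0%. For the Ifnar1 label (DKO and IFNAR against N5 and WT) edgeR likewise called 0 members and 0% of genes, with 0 members and 3.28% of genes at an unadjusted p under 0.05. DESeq2 called 0 members and 1.92% of genes (0.651% higher and 1.27% lower), and limma-voom 0 members and 0.00824%.

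By the Nfat5 label, 3 of 9 members kept a direction in all 4 matched pairs of libraries, where 11.1% of genes did (5.79% higher and 5.35% lower). Kit and Csf3r were higher in the libraries labelled as Nfat5-deficient, and Flt3 was lower. Kit had 1045 ± 110.4 CPM in those libraries and 972 ± 176 CPM in the others (SD over 4 libraries that include both cell types, log2 fold change 0.11, SE 0.10). Csf3r had 200.1 ± 81.4 CPM in the libraries labelled as Nfat5-deficient and 144 ± 82.5 CPM in the others (log2 fold change 0.59, SE 0.29, unadjusted p = 0.0845, the smallest of the members). By the Ifnar1 label, 1 of 9 did, where 12.1% of genes did (5.9% higher and 6.16% lower). Epor was higher in the libraries labelled as Ifnar1-deficient, at 17.6 ± 8.26 CPM, than in the others, at 5.73 ± 4.75 CPM (log2 fold change 1.62, SE 1.83).

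Single libraries of 1 cell type were also set side by side by genotype label. Of 36 ratios between genotype labels in HSC, 18 (50%) were at least 2-fold. By pair these were 4 for N5 over WT (41.5% of all genes), 4 for DKO over IFNAR (41.1%), 5 for IFNAR over WT (43.2%) and 5 for DKO over N5 (40%). In MPP, 9 of 36 (25%) were, with 3 for N5 over WT (30.8% of all genes), 2 for DKO over IFNAR (34.9%), 2 for IFNAR over WT (33.3%) and 2 for DKO over N5 (33.3%). In HSC, Flt3, Csf2rb, Il7r and Epor each had a library at 0 beside one of at least 10 CPM. These were 4 of 9 members, where 15.9% of genes of all levels showed such a gap. Their HSC means ran from 2.58 CPM for Il7r to 25.6 CPM for Flt3. In HSC, genes of 10 to 50 CPM had a median log2 range of 2.53 (upper quartile 8.43), and genes of 1 to 10 CPM one of 6.78. In MPP only Tek had a library at 0 beside one of at least 10 CPM, 1 of 9, where 7.67% of genes did. Different labels held these zeros. The HSC library labelled N5 had none of Flt3, the one labelled WT none of Csf2rb or Epor, and those labelled IFNAR, N5 and WT none of Il7r. With 1 library per group these ratios have no replicate check.

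**Figure D5:**
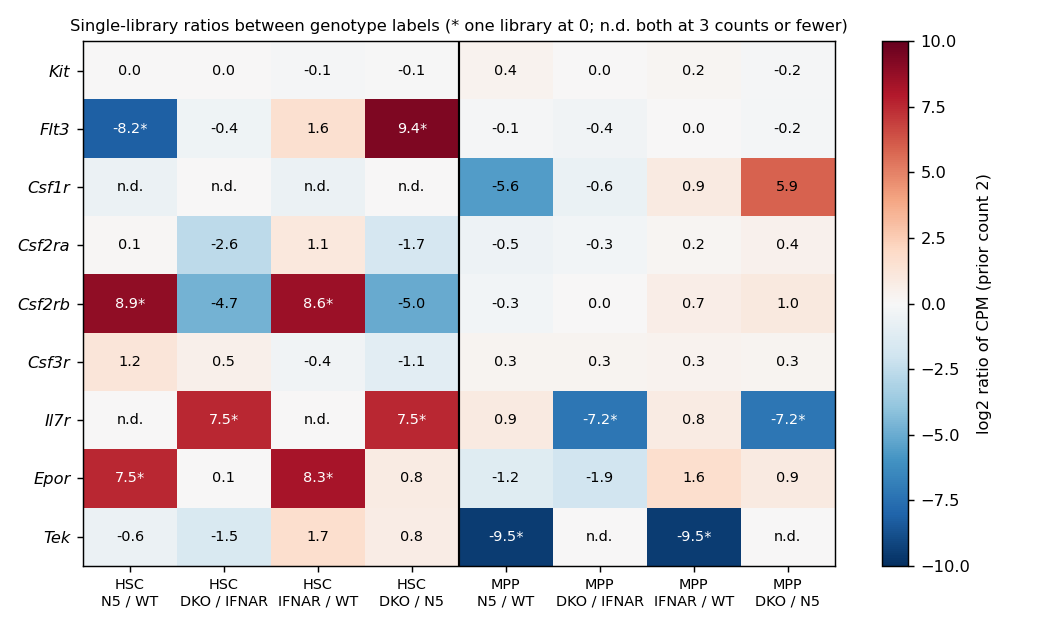
Log2 ratios of CPM between single libraries of different genotype labels (prior count of 2, red higher and blue lower in the label named first), with HSC pairs in the left block, MPP pairs in the right block and 1 row per member. Kit and Csf3r stay within 1.2 in every pair, while ratios marked with an asterisk involve a library at 0 counts and depend on the prior count.

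Interaction terms tested whether the HSC minus MPP difference depended on the Nfat5 or the Ifnar1 label, and whether the labels' effects depended on each other. In all 3, edgeR called 0 members and 0% of genes, with the smallest adjusted p among members at 0.999. An unadjusted p under 0.05 was reached by Csf3r alone, for the Ifnar1 label (interaction -1.07 on the log2 scale, SE 0.42, unadjusted p = 0.0481), where 4.82% of genes reached it. For the others 0 members did, where 4.42% (cell type and Nfat5 label) and 3.33% (both labels) of genes did. DESeq2 called Tek for the Nfat5 label (adjusted p = 0.00141), where it called 4.82% of genes. The MPP library labelled WT was the only MPP library with Tek counts.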

How the data were processed

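Polyadenylated RNA was amplified with Smart-Seq2, per the labels' protocols, a full-length method that has no molecular identifiers and keeps no strand. STAR 2.7.8a, RSEM 1.3.0 and GRCm39 are named in the submitters' processing notes. The authors deposited whole-number counts per gene for 8 libraries without normalization. The annotation release was not given in the sources used here.

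The main test was the quasi-likelihood test of edgeR 4.0.16 (R 4.3.3) after TMM scaling and a filterByExpr filter grouped by cell type, with Benjamini-Hochberg adjustment at 0.05 over 12132 genes. The HSC against MPP contrast carried a genotype block (leaving 3 degrees of freedom), and the label contrasts had cell type and both labels as terms (leaving 4). Alternatives were RLE factors, other filters, DESeq2 1.42.0, limma-voom (limma 3.58.1), edgeR's bias-adjusted method and leaving out each library. Log2 levels used a prior count of 2. Each SE of an edgeR fold change is its absolute value divided by the square root of the test's F statistic. It is not estimated by the model and is unreliable where libraries are at 0. The fitting was also run on simulated data as a check of the code only, and the outcome is not reported here. Intervals and floors (3 counts) cover counting error only. Lengths, neighbours and overlaps came from GENCODE M21 (GRCm38), alignments from Biopython 1.88.

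The members and lists were chosen with earlier results of these data known. All members are named, with the 3 genes of smallest p in each pathway list at 10 CPM or more, Csf2rb2 and the 2 most similar genes per member; some genes these rules name are not reported here. Socs1 and Il2rg were named after their values were seen.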

Additional observations from a re-analysis of the deposited data

Results flagged for a closer look

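The level of each named gene was checked in the 4 HSC and the 4 MPP libraries for a library far from the others. Of 52 such groups, 7 had a gap above Dixon's 95% critical value for 4 samples, which chance passes in about 1 of 20 groups of continuous values. That rate does not hold where 3 libraries are at 0, since any count in the other library then passes, as for Csf1r, Il7r and Tek. Among the members, Csf1r had 0.0290 CPM, a single count, in the HSC library labelled WT and 0 in the other HSC libraries. Il7r had 10.3 CPM in the HSC library labelled DKO and 0 in the others. Tek had 41.5 CPM in the MPP library labelled WT and 0 in the other MPP libraries. Csf2rb2 had 69.1 CPM in the HSC library labelled WT, against 12.2 to 20.8 CPM in the others. Il11ra1 had 149 CPM in the MPP library labelled IFNAR, against 60.5 to 68.7 CPM. Flt3l had 22.0 CPM in the HSC library labelled WT, against 7.70 to 9.76 CPM, and Pim2 had 88.2 CPM in the MPP library labelled N5, against 50.2 to 54.2 CPM. Genotype differs between the libraries of each group, so a library that stands apart and its genotype cannot be told apart.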

How the results depend on the processing

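The count of genes called for HSC against MPP, 2 in the design used here, was 1880 with DESeq2, 156 with limma-voom, 107 with edgeR's bias-adjusted method, 23 with a filter of 10 CPM in 4 libraries, 207 without the genotype block and 0 without any 1 library. Members called, 0 here, were 7 with DESeq2 and 1 each with limma-voom, the bias-adjusted method and no block, and 0 without any 1 library. For the Nfat5 label DESeq2 called 166 genes. For the Ifnar1 label it called 233, and limma-voom and the bias-adjusted method 1 each. For the interactions DESeq2 called 585 (cell type and Nfat5 label, 1 member), 607 (cell type and Ifnar1 label) and 393 (both labels). The cause of these differences between tools was not tested. The 4 members without overlap numbered 4 to 6 when 1 library was left out, with Tek and Csf3r added without the HSC library labelled N5 or the MPP library labelled WT. RLE factors and no filter changed no direction and no call of a named gene.

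Directions turned for members near 0 or with libraries at 0. For HSC against MPP, Csf2ra was 0.027 with limma-voom, and without 1 library it ran from -0.61 to 0.17 and Epor from -1.40 to 0.74. For the Nfat5 label, limma-voom gave -0.15 for Il7r and -0.79 for Epor, the bias-adjusted method -0.069 for Csf2rb and -0.38 for Epor, and no term for the other label -0.49 for Epor. Without 1 library, Csf2rb ran from -1.33 to 1.51, Epor from -0.96 to 1.08 and Il7r from -1.85 to 6.56. For the Ifnar1 label, limma-voom gave -0.33 for Il7r and 1.48 for Tek, and the bias-adjusted method 0.59 for Tek. Without 1 library, Kit ran from -0.11 to 0.026, Csf1r from -0.15 to 3.01, Csf2ra from -0.35 to 0.50, Csf2rb from -0.58 to 2.42, Csf3r from -0.41 to 0.084, Il7r from -1.89 to 6.38 and Tek from -6.88 to 1.18. The labels give no replicate numbers. HSC and MPP libraries were paired by genotype label, and without this pairing the call count was the 207 given above.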
